A study of Mus musculus with 4 samples.

Results

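Macrophages are tissue phagocytes that clear dead cells and debris, sense microbes and complement, and release signals to the cells around them. In mouse skin they lie mainly in the dermis and around hair follicles, and they are known to take part in the change from the resting phase of the follicle (telogen) to the growth phase. The 37 genes described here encode proteins that macrophages make in quantity: their lineage regulators, complement C1q, Fc receptors, scavenger receptors and lectins, lysosomal enzymes and leukocyte membrane proteins. They were named as a list of macrophage genes, and each was read from the probe sets that the platform annotation gives to that gene alone. All 37 of 37 had such a set, out of 18194 genes in the table, and a gene with several sets was read from its brightest set, averaged over the 4 arrays.

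The tissue was whole dorsal skin of male C57B6 mice at postnatal day 59 (P59, late telogen, 2 arrays) and at postnatal day 54 (P54, middle telogen, 2 arrays). By the labels the groups differ in age, with no allele or agent. P59 replicate 2 also differs from the other arrays in RNA quality, as given below. The labels name the replicates of each age biological without giving the number of animals in a sample. Beyond that name, nothing says that the samples came from separate animals. The p-values here cover the spread between samples, part of which may be technical. In whole skin, more macrophages and more transcript per macrophage cannot be told apart. Several of the genes are also made by other cells, such as Tyrobp, Fcer1g, Ctss, Cd53 and Laptm5 by dendritic cells and Lgals3 by keratinocytes.

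The values are deposited intensities taken to log2, so a difference of 1 is a doubling of intensity, and a level is compared between arrays and not between genes. The median log2 intensity of the 4 arrays lay between 6.02 and 6.12. The arrays were not alike in RNA quality as their control sets show it. The array maker's Gapdh sets at the 3′ and 5′ ends of the transcript stood in a ratio of 23.8 on P59 replicate 2, against 1.18 on P59 replicate 1 and 1.27 and 1.15 on the P54 arrays. For beta-actin that ratio was 3.12 on P59 replicate 2 and 1.13 on P59 replicate 1, against 1.36 and 1.44 on the P54 arrays. Cells of skin were present by their defining transcripts, with the keratinocyte gene Krt14 between 12.91 and 13.38 and the fibroblast gene Col1a1 between 14.46 and 14.52 on the 4 arrays.

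Most macrophage genes had a higher mean at P59 than at P54, by modest amounts. Of the 37 genes, 35 had the higher mean at P59 and 2, C1qa and Lgals3, the lower, beside 62.3% of all genes with a higher mean. The median difference was 0.48 over the 37 genes and 0.07 over all 18194. For 24 genes the difference was at least 0.4, which was true of 8.54% of all genes. In 23 of the 37 both P59 arrays lay above both P54 arrays, against 23.3% of all genes, in 0 both lay below, against 12.3%, and in 14 the groups overlapped.

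No single gene of the list passed the test across all genes. The test was limma's moderated test on the 10916 genes whose mean log2 intensity exceeded its 40th percentile, with Benjamini-Hochberg adjustment and a threshold of 0.05. On simulated arrays it recovered 21% of 2-fold differences and 97% of 4-fold differences. A gene that did not pass is thus not shown to be unchanged. Of the 37 genes 35 were tested, Trem2 and Itgam being below that level of 6.58, called the intensity filter here. Of the 35 tested, 0 passed the adjusted threshold, beside 0.0183% of all genes tested, and the adjusted p-values in limma ran from 0.179 to 0.998. At an unadjusted limma p under 0.05 there were 15 of the 35, all of them higher at P59, against 3.47% of genes tested that were higher and 3.01% that were lower at that limit. Among the 15, Msr1 and Clec4n had P54 means below the intensity filter and passed it through their P59 level, and with no filter the count was 16 of 37. Without P54 replicate 2 the count of 15 became 4 and without P54 replicate 1 it was 8. Without P59 replicate 1, when the sole P59 array was the array with the high 3′ to 5′ ratios, 7 macrophage genes passed the adjusted threshold of 0.05, 6 of them higher at P59 and C1qa lower, beside 3.67% of all genes tested.

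**Figure D1:**
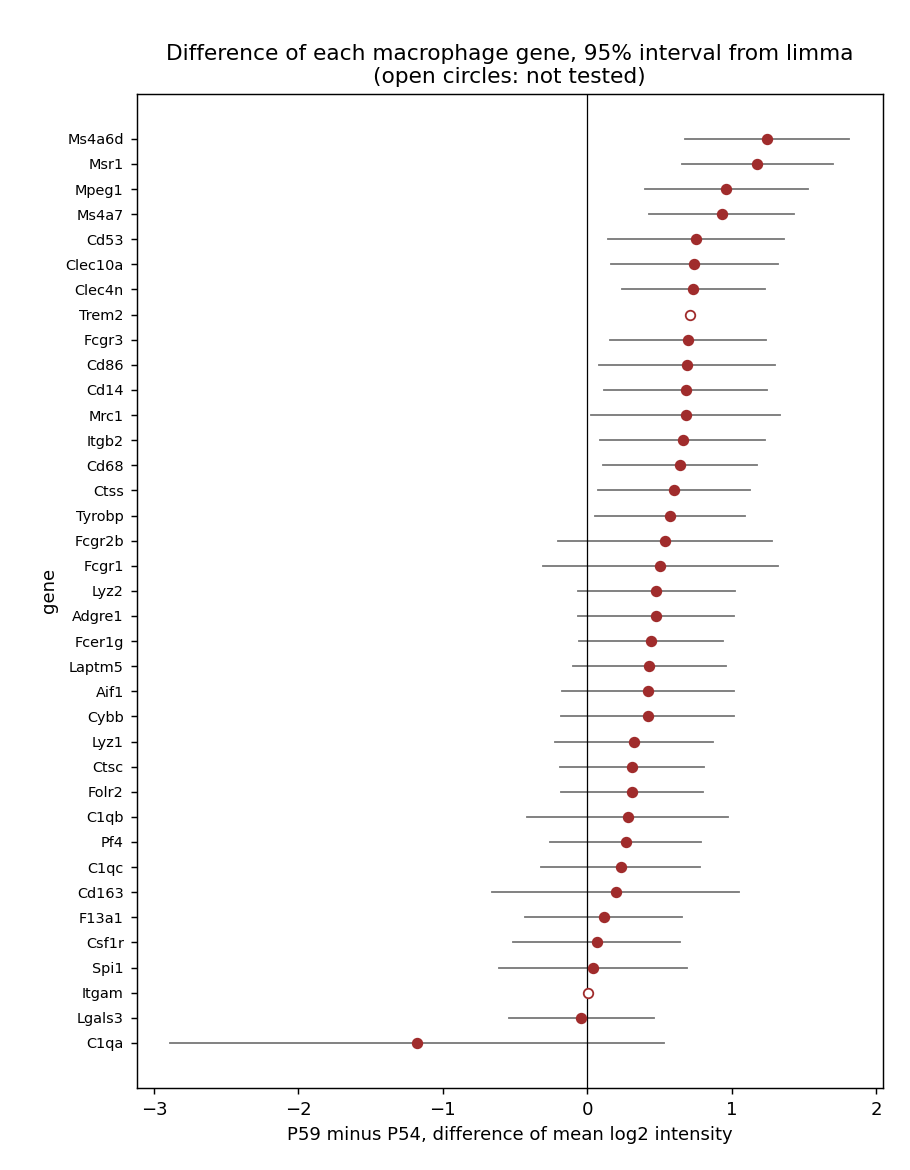
Difference in mean log2 intensity, P59 minus P54, for each of the 37 macrophage genes (points), with the 95% interval from limma (lines) and open circles for the 2 genes not tested. The differences run from 1.25 for Ms4a6d to -1.18 for C1qa, and 35 of 37 points lie to the right of 0.

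**Figure D2:**
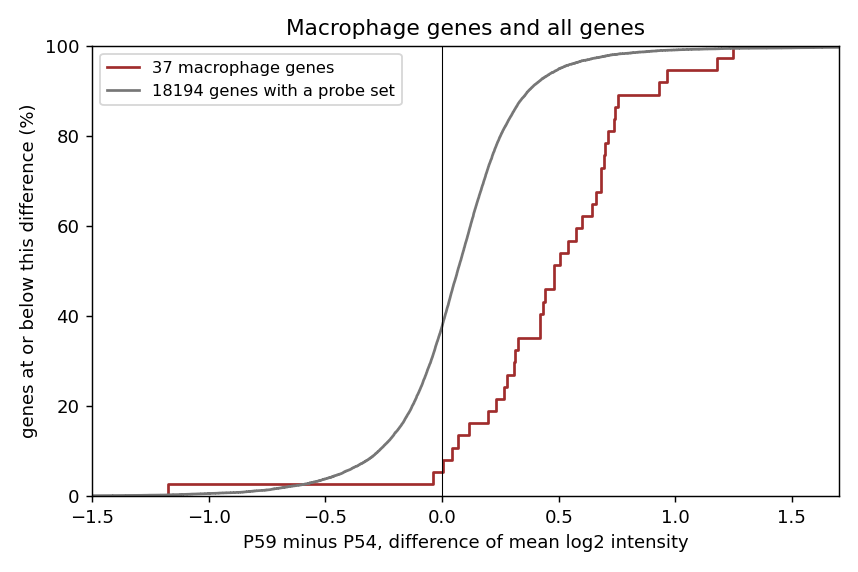
Cumulative share of genes (vertical axis, percent) at or below each P59 minus P54 difference of mean log2 intensity (horizontal axis), for the 37 macrophage genes and the 18194 genes with a probe set. The medians are 0.48 for the macrophage genes and 0.07 for all genes.

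Among genes higher at P59 the largest differences belonged to Ms4a6d, Msr1, Mpeg1 and Ms4a7, while C1qa, at -1.18, was the gene with the largest difference in the other direction. Ms4a6d, a member of the MS4A family of membrane proteins of myeloid cells, was at 8.25 and 8.81 on the P59 arrays and at 7.25 and 7.32 on the P54 arrays. The groups were separate by more than either group's spread, with means of 8.53 ± 0.40 at P59 and 7.28 ± 0.05 at P54 (SD, n = 2 each). The difference was 1.25 (2.37-fold; SE 0.25; limma adjusted p = 0.197), and a second probe set above the intensity filter differed by 1.42. Ms4a7, of the same family, was at 8.48 and 8.69 on the P59 arrays and at 7.66 and 7.65 on the P54 arrays. Its groups did not overlap, and its difference of 0.93 (1.91-fold; SE 0.23; limma adjusted p = 0.337) was 0.83 with P59 replicate 1 alone and 1.04 with P59 replicate 2 alone.

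The lineage genes divided. Mpeg1, which encodes the pore-forming perforin-2 of macrophages, was at 9.99 and 10.17 on the P59 arrays and at 9.38 and 8.84 on the P54 arrays. Both P59 arrays lay above both P54 arrays, and the P54 arrays were 0.54 apart. Cd68, a glycoprotein of the lysosomal membrane, was at 9.51 and 9.15 on the P59 arrays and at 8.79 and 8.59 on the P54 arrays, again without overlap. Adgre1, an adhesion receptor long used to mark mouse macrophages, was at 8.66 and 9.06 on the P59 arrays and at 8.49 and 8.27 on the P54 arrays, a separate pair of groups with a difference of 0.48 (95% interval -0.06 to 1.02).

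For the master regulators of the lineage the groups overlapped. Spi1, which encodes the transcription factor PU.1, was at 7.77 and 6.91 on the P59 arrays and at 7.32 and 7.27 on the P54 arrays. The P59 arrays lay on either side of the P54 pair, and the difference was 0.04 (95% interval -0.61 to 0.69). Csf1r, the receptor for the growth factors CSF1 and IL-34 on which macrophages depend, was at 11.45 and 12.07 on the P59 arrays and at 11.69 and 11.69 on the P54 arrays. Its groups overlapped too, with P59 replicate 1 lowest and P59 replicate 2 highest. Its 3 probe sets differed by 0.07, 0.27 and -0.25, so that the direction depended on the set. Aif1, the gene of the calcium-binding protein IBA1, was at 7.68 and 7.20 on the P59 arrays and at 7.27 and 6.78 on the P54 arrays, and its groups overlapped.

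**Figure D3:**
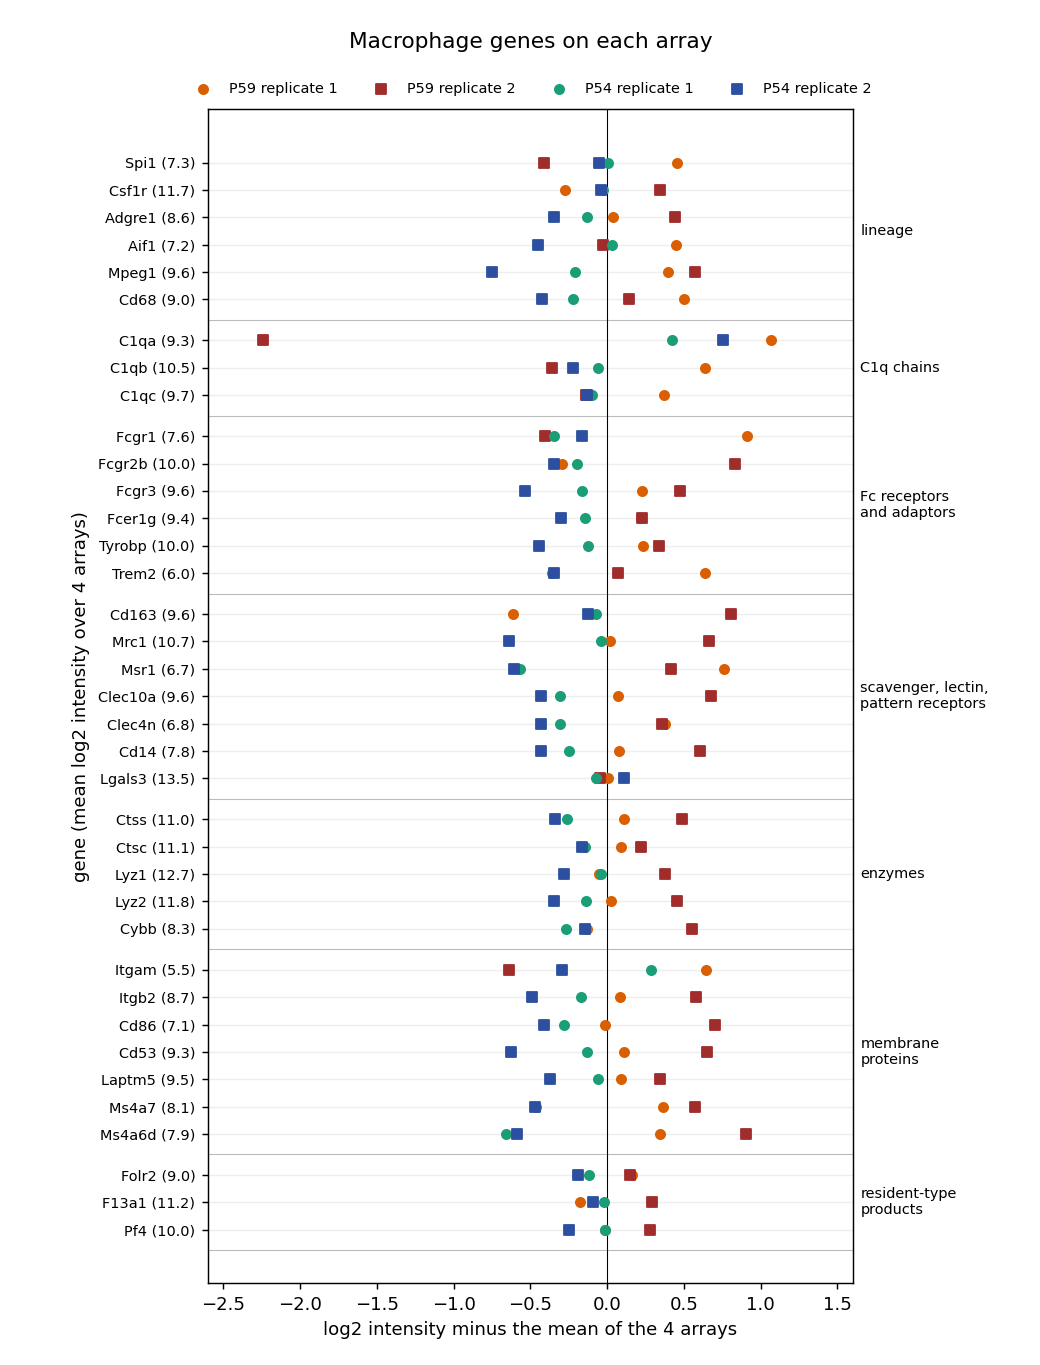
Log2 intensity of each macrophage gene on each array, minus its mean over the 4 arrays (horizontal axis), with genes in rows by role and that mean in brackets. The P59 points lie to the right of the P54 points in 23 of 37 rows, and P59 replicate 2 lies far to the left for C1qa (7.09 against 9.76 and 10.09 on the P54 arrays).

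PU.1 binds a purine-rich element, the PU box, in the promoters of many myeloid genes. Its 6 core letters, GAGGAA, were searched on either strand in the 250 bases before the annotated start in RefSeq (GRCm38.p6), with no other motif searched. A promoter entry was held for 25 of the 37 genes, and 15 of these 25 contained the letters, beside 25.9% of 27025 genes with an entry. The 15 genes with a PU box had a median difference of 0.43, P59 minus P54, and the 10 with an entry and no such letters had 0.43 as well. A match describes the letters and is not a measured binding site. The 120 bases before the start are shown for 6 genes with a match in that window and for the high-ranking Ms4a7 and Mpeg1, which have none in it. Capitals mark the match, as GAGGAA or as its reverse complement TTCCTC.
Mrc1, chr2:14229294-14229413, plus strand: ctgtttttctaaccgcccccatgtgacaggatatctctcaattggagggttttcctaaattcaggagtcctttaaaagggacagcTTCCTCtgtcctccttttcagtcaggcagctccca
Cd53, chr3:106790150-106790269, minus strand: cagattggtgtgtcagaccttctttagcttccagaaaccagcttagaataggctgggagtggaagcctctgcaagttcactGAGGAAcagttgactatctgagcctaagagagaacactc
Trem2, chr17:48346281-48346400, plus strand: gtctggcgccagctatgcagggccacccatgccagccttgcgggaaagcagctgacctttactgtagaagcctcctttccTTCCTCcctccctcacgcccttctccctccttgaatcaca
Fcgr3, chr1:171059395-171059514, minus strand: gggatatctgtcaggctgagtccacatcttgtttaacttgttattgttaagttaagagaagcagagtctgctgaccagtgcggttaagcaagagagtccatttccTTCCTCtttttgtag
C1qb, chr4:136886201-136886320, minus strand: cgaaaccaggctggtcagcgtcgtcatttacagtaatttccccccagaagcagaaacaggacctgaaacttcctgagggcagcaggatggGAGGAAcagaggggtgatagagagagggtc
Itgam, chr7:128062520-128062639, plus strand: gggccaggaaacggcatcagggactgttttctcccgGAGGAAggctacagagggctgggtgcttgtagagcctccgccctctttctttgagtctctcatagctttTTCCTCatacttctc
Ms4a7, chr19:11336147-11336266, minus strand: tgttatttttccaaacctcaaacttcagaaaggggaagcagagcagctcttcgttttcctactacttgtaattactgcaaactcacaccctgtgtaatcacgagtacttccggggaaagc
Mpeg1, chr19:12460650-12460769, plus strand: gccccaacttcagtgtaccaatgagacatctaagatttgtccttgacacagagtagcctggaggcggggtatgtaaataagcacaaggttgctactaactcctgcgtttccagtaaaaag

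Scavenger receptors and lectins held 5 of the 15 genes at an unadjusted limma p under 0.05, out of 7 tested. The leukocyte membrane proteins held 5 as well, out of 6 tested. At that limit 3.47% of all genes tested were higher and 3.01% lower. Msr1, scavenger receptor A, was at 7.45 and 7.10 on the P59 arrays and at 6.11 and 6.08 on the P54 arrays. The groups were far apart relative to their spread, with a difference of 1.18 (2.26-fold; SE 0.23; limma adjusted p = 0.179), but the P54 values were below the intensity filter. The other 3 sets of Msr1, all dimmer than the filter, differed by 0.49, 0.16 and 0.28. Clec4n, the dectin-2 receptor for fungal mannans, was at 7.15 and 7.13 on the P59 arrays and at 6.46 and 6.34 on the P54 arrays, so it too passed the filter through its P59 level. Clec10a, a galactose-type lectin of dermal macrophages and dendritic cells, was at 9.71 and 10.32 on the P59 arrays and at 9.34 and 9.21 on the P54 arrays. Its groups did not overlap, and it differed by 0.44 with P59 replicate 1 alone.

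Mrc1, the mannose receptor CD206, was at 10.71 and 11.35 on the P59 arrays and at 10.65 and 10.05 on the P54 arrays. P59 replicate 1 exceeded P54 replicate 1 by little, and without P54 replicate 2 the Mrc1 difference was 0.38 instead of 0.68. Cd14, the co-receptor for bacterial lipopolysaccharide, was at 7.87 and 8.40 on the P59 arrays and at 7.55 and 7.36 on the P54 arrays, without overlap. Cd163, the receptor for haptoglobin-bound haemoglobin, was at 8.97 and 10.39 on the P59 arrays and at 9.50 and 9.46 on the P54 arrays. Here the P59 arrays lay on opposite sides of the P54 pair: the difference was -0.51 with P59 replicate 1 alone and 0.91 with P59 replicate 2 alone. Lgals3, the gene of the carbohydrate-binding galectin-3, was at 13.47 and 13.42 on the P59 arrays and at 13.39 and 13.57 on the P54 arrays, and its difference was -0.04 (95% interval -0.54 to 0.46).

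Fc receptors bind antibody and, in the activating forms, signal through small adaptors with tyrosine activation motifs (ITAMs). The adaptor Fcer1g, the common gamma chain, was at 9.60 and 9.60 on the P59 arrays and at 9.24 and 9.08 on the P54 arrays. Tyrobp, the adaptor DAP12 that also serves TREM2, was at 10.28 and 10.39 on the P59 arrays and at 9.92 and 9.60 on the P54 arrays. In both adaptors the P59 arrays agreed closely and lay above the P54 arrays, by 0.44 (95% interval -0.05 to 0.94) for Fcer1g and 0.57 (0.05 to 1.09) for Tyrobp. Fcgr3, the low-affinity activating receptor, was at 9.82 and 10.07 on the P59 arrays and at 9.43 and 9.06 on the P54 arrays, also without overlap.

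Fcgr1 and Fcgr2b were each high on 1 P59 array. Fcgr1, the high-affinity receptor, was at 8.55 and 7.23 on the P59 arrays and at 7.29 and 7.47 on the P54 arrays, so P59 replicate 1 was high and P59 replicate 2 below the P54 pair. Fcgr2b, the inhibitory receptor, was at 9.68 and 10.80 on the P59 arrays and at 9.78 and 9.63 on the P54 arrays, with P59 replicate 2 the high array. Its 4 sets above the filter differed by 0.54, 0.24, 0.59 and 0.67, and a dim one by -0.20. Trem2, a lipid-sensing receptor of tissue macrophages, was below the filter, at 6.64 and 6.07 on the P59 arrays and at 5.64 and 5.65 on the P54 arrays, and its second set differed by 0.09.

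C1q, the first component of the classical complement pathway, is assembled from 3 chains that macrophages make together, and its genes behaved unlike on P59 replicate 2. C1qa was at 10.40 and 7.09 on the P59 arrays and at 9.76 and 10.09 on the P54 arrays. C1qb was at 11.11 and 10.11 on the P59 arrays and at 10.41 and 10.25 on the P54 arrays. C1qc was at 10.03 and 9.52 on the P59 arrays and at 9.56 and 9.53 on the P54 arrays. P59 replicate 1 was the highest array for each chain, by 0.48 to 0.78 over the P54 mean. P59 replicate 2 was the lowest array for each chain, by -2.83 for C1qa, -0.22 for C1qb and -0.0215 for C1qc relative to that mean. The other probe sets of C1qb did not show this: they were at 10.54 and 10.41 and at 9.87 and 9.48 on the P59 arrays, against 9.90 and 9.51 and 9.14 and 9.14 on the P54 arrays, and differed by 0.77 and 0.53. C1qa and C1qc had 1 set each.

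Lysosomal and antimicrobial enzymes were higher in mean at P59 in 5 of 5 genes, beside 62.3% of all genes, with differences of 0.31 to 0.60. Ctss, the cathepsin that trims the invariant chain of MHC class II, was at 11.14 and 11.52 on the P59 arrays and at 10.77 and 10.69 on the P54 arrays. Ctsc, the dipeptidyl peptidase that activates granule proteases, was at 11.22 and 11.36 on the P59 arrays and at 10.99 and 10.97 on the P54 arrays. The groups of both cathepsins were separate. Cybb, the catalytic subunit of the phagocyte NADPH oxidase, was at 8.17 and 8.86 on the P59 arrays and at 8.03 and 8.16 on the P54 arrays. Its groups were separate by little on P59 replicate 1, and the Cybb difference with that P59 array alone was 0.08.

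The lysozyme genes Lyz2, of macrophages, and Lyz1, known in the mouse mainly from Paneth cells, are neighbouring near-copies. Lyz2 was at 11.82 and 12.25 on the P59 arrays and at 11.66 and 11.45 on the P54 arrays. Lyz1 was at 12.65 and 13.07 on the P59 arrays and at 12.65 and 12.41 on the P54 arrays. The array order was alike in both but for a near tie in Lyz1. The bright Lyz1 sets are of the kind that can match several transcripts, and the third, dim Lyz1 set lay between 4.48 and 4.86 on the 4 arrays, so the Lyz1 level is uncertain. The 120 bases before the start of the pair are identical in 92.5% of positions, and the 9 that differ are in capitals.
Lyz1, chr10:117292869-117292988, minus strand: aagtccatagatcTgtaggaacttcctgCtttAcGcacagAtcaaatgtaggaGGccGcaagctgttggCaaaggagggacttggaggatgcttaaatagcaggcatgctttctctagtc
Lyz2, chr10:117282273-117282392, minus strand: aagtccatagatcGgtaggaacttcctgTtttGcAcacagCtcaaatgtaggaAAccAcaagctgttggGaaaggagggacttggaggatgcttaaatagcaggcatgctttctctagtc

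Among the membrane proteins shared by leukocytes, 6 of 7 genes had both P59 arrays above both P54 arrays on the set used, beside 23.3% of all genes. Cd53, a tetraspanin, was at 9.39 and 9.93 on the P59 arrays and at 9.15 and 8.65 on the P54 arrays. Itgb2, the common beta chain of the leukocyte integrins, was at 8.80 and 9.29 on the P59 arrays and at 8.54 and 8.22 on the P54 arrays. Cd86, a costimulatory ligand for T cells, was at 7.09 and 7.80 on the P59 arrays and at 6.82 and 6.69 on the P54 arrays. In these 3 genes P59 replicate 2 was the highest array, and with P59 replicate 1 alone the differences were 0.48 for Cd53, 0.41 for Itgb2 and 0.33 for Cd86.

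Itgam, the alpha chain CD11b that pairs with Itgb2, was dim and did not follow it. It was at 6.11 and 4.83 on the P59 arrays and at 5.76 and 5.18 on the P54 arrays, with overlapping groups. Laptm5, a lysosomal membrane protein of blood cells, was at 9.54 and 9.79 on the P59 arrays and at 9.39 and 9.08 on the P54 arrays. Its 5 probe sets did not point one way. The set used differed by 0.43, and the others by 0.01, -0.12, -0.90 and, for a set below the filter, -0.14. The set at -0.90 was at 7.17 and 5.66 on the P59 arrays and at 7.36 and 7.28 on the P54 arrays.

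Folr2, F13a1 and Pf4, known from long-resident macrophages, differed by 0.11 to 0.31. Folr2, a folate receptor, was at 9.17 and 9.16 on the P59 arrays and at 8.89 and 8.82 on the P54 arrays, a narrow but complete separation of 0.31 (95% interval -0.18 to 0.80). F13a1, the A chain of coagulation factor XIII, was at 10.99 and 11.46 on the P59 arrays and at 11.15 and 11.08 on the P54 arrays. Pf4, a chemokine of platelets and of resident macrophages, was at 9.98 and 10.27 on the P59 arrays and at 9.98 and 9.74 on the P54 arrays. The groups of F13a1 and Pf4 overlapped, and their differences were 0.11 (95% interval -0.43 to 0.66) and 0.27 (-0.26 to 0.79).

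**Figure D4:**
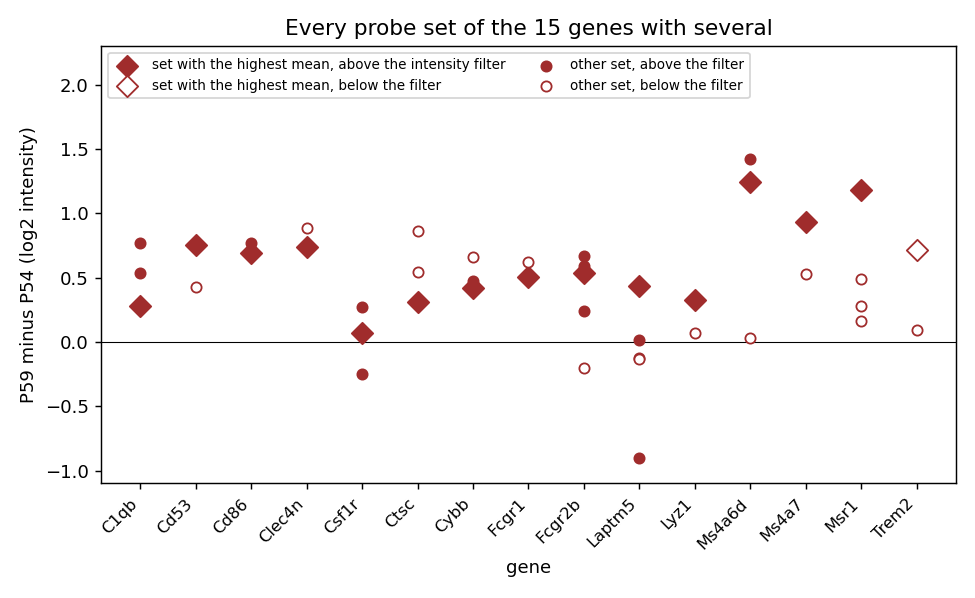
P59 minus P54 difference in mean log2 intensity (vertical axis) of every probe set of the 15 macrophage genes with several sets; diamonds are the set used for the gene, circles the others, and open symbols lie below the intensity filter. The sets of Ms4a6d above the filter lie at 1.25 and 1.42, while those of Csf1r and Laptm5 fall on both sides of 0.

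The P59 arrays agreed on direction for most of the list and differed in size. Against the mean of the P54 arrays, 32 of 37 genes were higher on P59 replicate 1, beside 54.6% of all genes. For P59 replicate 2 it was 30 of 37, beside 65% of all genes. The median difference was 0.44 with P59 replicate 1 and 0.63 with P59 replicate 2. Both P59 arrays exceeded the mean of the P54 arrays in 26 of 37 genes, which was so for 40% of all genes with a probe set. In 10 genes the arrays pointed in opposite ways. P59 replicate 1 was above and P59 replicate 2 below for Spi1, C1qa, C1qb, C1qc, Fcgr1 and Itgam, while Csf1r, Fcgr2b, Cd163 and F13a1 were the other way round. The distance between the P59 arrays exceeded 1 in 5 genes, beside 3.42% of all genes, and the largest distance between the P54 arrays was 0.60. The median distance over the 37 genes was 0.48 between the P59 arrays and 0.16 between the P54 arrays, and over all genes 0.24 between the P59 arrays and 0.18 between the P54 arrays. P54 replicate 2 was the lowest of the 4 arrays for 24 of the 37 genes and P59 replicate 2 the highest for 24. Over all 18194 genes P54 replicate 2 was the lowest for 6946 and P59 replicate 2 the highest for 7959, so these arrays stood apart across the table as well. The part that RNA quality had in these distances was not tested.

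**Figure D5:**
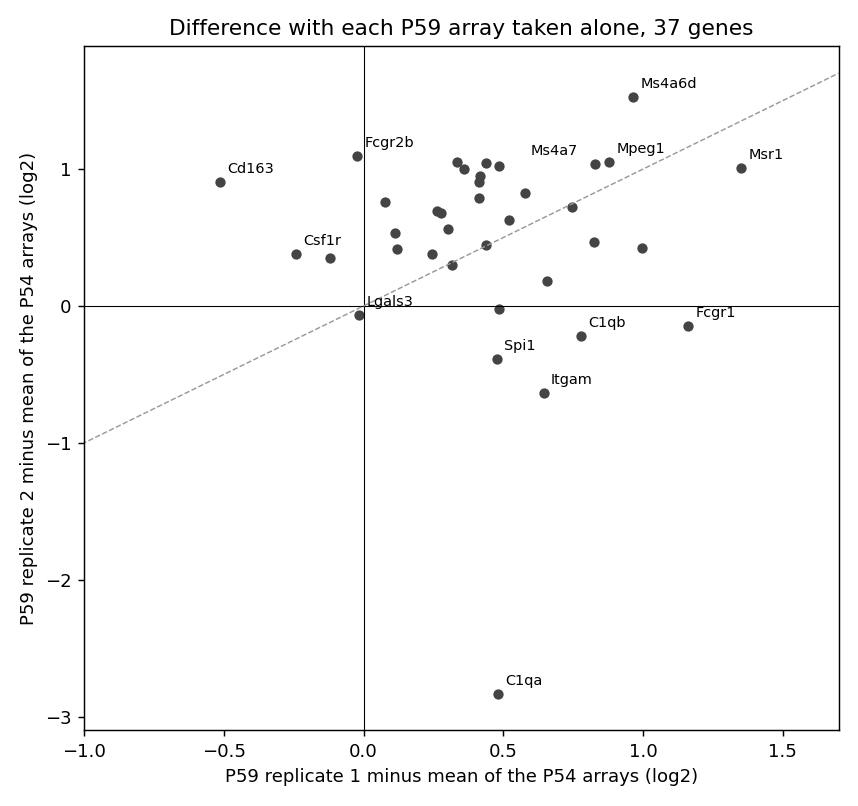
Difference of each macrophage gene from the mean of the P54 arrays (log2), with P59 replicate 1 alone on the horizontal axis and P59 replicate 2 alone on the vertical axis; the dashed line marks equal values. Of the 37 genes 26 lie above 0 on both axes, and C1qa lies at 0.48 and -2.83.

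Probe sets of the same gene were compared array by array. Of the 37 genes 8 had several sets above the filter, and the distance of each array from the mean of the other 3 was taken for each set. The median range between sets of a gene was 0.27 on P59 replicate 1 and 0.47 on P59 replicate 2, against 0.33 and 0.46 on the P54 arrays. Over 4202 genes with several such sets it was 0.27 on P59 replicate 1 and 0.39 on P59 replicate 2, against 0.20 and 0.29 on the P54 arrays. On P59 replicate 2 the range reached 1.40 for Csf1r and 2.06 for Laptm5. Of the 49 macrophage probe sets above the filter 44 were higher at P59 and 5 lower. Several of the 49 read the same gene and are not separate observations. Of all 10916 genes tested, each with 1 set, 6376 had the higher mean at P59.

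Further genes of the macrophage programme were followed as a separate list of 20, of which 18 had a set of their own. Of these 12 had the higher mean at P59 and 6 the lower, a share near the 62.3% of all genes. Their median difference was 0.26, beside 0.07 over all genes. Of 15 tested 4 had an unadjusted limma p under 0.05, all higher, beside 3.47% of all genes tested that were higher. Lyve1, a hyaluronan receptor of perivascular macrophages and of lymphatic vessels, was at 9.34 and 10.55 on the P59 arrays and at 8.81 and 8.20 on the P54 arrays, a difference of 1.44 (limma adjusted p = 0.392). Hpgds, a prostaglandin D synthase, was the tested gene of the list with the lowest difference, at -0.34. Of the 11 growth factors, attractants and their receptors, 9 had the higher mean at P59, beside 62.3% of all genes. Of the Csf1r ligand genes Csf1 differed by 0.02, and Il34, which keratinocytes make, by -0.97, at 7.49 and 5.94 on the P59 arrays and at 7.62 and 7.75 on the P54 arrays. Il34 was thus low on P59 replicate 2, the array with the high 3′ to 5′ ratios. Ccl8, a chemokine of dermal macrophages, had the largest positive difference of these, 0.57, at 12.30 and 12.12 on the P59 arrays and at 11.75 and 11.52 on the P54 arrays.

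Genes that act in the same machinery were read next. Of the signalling genes below ITAM adaptors 9 of 11 had the higher mean at P59, beside 62.3% of all genes. Their median difference was 0.27, from Inpp5d, a lipid phosphatase, at 0.61 to Blnk at -0.20. The 4 measured partners of Cybb in the NADPH oxidase differed by 0.11 to 0.44, and Cyba, its membrane partner, by the most. Of 15 lysosomal genes 13 had the higher mean, again beside 62.3% of all genes, with a median of 0.24. Gpnmb, a glycoprotein of phagocytes and pigment cells, was at 10.51 and 10.51 on the P59 arrays and at 9.59 and 9.75 on the P54 arrays, and Ctsd at 12.06 and 10.52 on the P59 arrays against 11.87 and 11.81 on the P54 arrays. These 3 lists had 9, 4 and 15 genes tested. None passed the adjusted threshold in limma, beside 0.0183% of all genes tested. At an unadjusted limma p under 0.05 there were 3 genes in all, each higher at P59. Of all genes tested 3.47% were higher and 3.01% lower at that limit.

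Markers of other leukocytes were read on the same arrays. Pan-leukocyte genes had a median difference of 0.42, with 11 of 13 higher in mean, beside 62.3% of all genes. Ptprc, the CD45 antigen of all leukocytes, was at 9.71 and 10.64 on the P59 arrays and at 10.004 and 9.50 on the P54 arrays, so that its groups overlapped, and Evi2a (0.70) and Coro1a (-0.54) were the extremes. The intensities of the pan-leukocyte list summed to 6072 and 7010 on the P59 arrays and to 6233 and 4509 on the P54 arrays. Those of the 37 macrophage genes summed to 50390 and 58504 on the P59 arrays and to 45103 and 42892 on the P54 arrays. Lgals3, also made by keratinocytes, and Lyz1, whose level is uncertain, were the brightest of the 37 on each array. Both weigh heavily in the macrophage sums. The sums of the groups overlapped for the pan-leukocyte list and did not for the macrophage genes, nor for the neutrophil, T cell, mast cell and B cell lists. The T cell genes summed to 1515 and 1595 on the P59 arrays and to 1381 and 1263 on the P54 arrays. Zap70, the brightest T cell gene on each array, was at 9.26 and 9.29 on the P59 arrays and at 8.85 and 8.93 on the P54 arrays. The groups overlapped in 7 of the 8 T cell genes measured and were separate for Zap70 alone. The separation of the T cell sums therefore rests largely on Zap70. The mast cell genes summed to 2652 and 2724 on the P59 arrays and to 2434 and 1955 on the P54 arrays, and the B cell genes to 207 and 205 on the P59 arrays and to 162 and 194 on the P54 arrays.

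Of the neutrophil list 10 of 11 genes had the higher mean, beside 62.3% of all genes. But 8 of the 11, among them Mpo, Elane, Camp, Ltf, Ngp and Cxcr2, were below the filter. The list's sums were 830 and 1147 on the P59 arrays and 464 and 530 on the P54 arrays. S100a8 and S100a9 were its brightest genes on both P59 arrays, so the P59 sums rest largely on them. S100a8, also made by keratinocytes, was the gene past the adjusted threshold on that list, at 8.28 and 8.77 on the P59 arrays and at 6.36 and 6.34 on the P54 arrays. It entered the test through its P59 level, and no gene of the table passed without the filter in limma, with 1122 at an unadjusted p under 0.05. S100a9 was at 6.92 and 8.30 on the P59 arrays and at 5.62 and 6.17 on the P54 arrays, a difference of 1.71. Of 7 monocyte genes 4 were higher, beside 62.3% of all genes. Plac8 was at 9.93 and 9.71 on the P59 arrays and at 8.69 and 8.68 on the P54 arrays. Nr4a1, an immediate early gene, differed by -1.40 with overlapping groups. It was at 9.44 and 8.56 on the P59 arrays and at 11.37 and 9.43 on the P54 arrays. The monocyte sums were 2318 and 1911 on the P59 arrays and 3674 and 1601 on the P54 arrays. The sum on P54 replicate 1 rests largely on Nr4a1.

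Langerhans and dendritic cell genes had a median difference of 0.18 with 9 of 10 higher, beside 62.3% of all genes. Their sums were 1323 and 2014 on the P59 arrays and 1651 and 1144 on the P54 arrays. Cd207, the Langerhans cell lectin, was at 8.46 and 9.30 on the P59 arrays and at 8.63 and 8.20 on the P54 arrays. T cell genes had a median of 0.07, with Cd3e at 8.16 and 7.92 on the P59 arrays and at 8.21 and 7.75 on the P54 arrays. The 5 B cell genes measured were all below the filter, and the 8 mast cell genes had a median of 0.33. Of the structural lists, basal keratinocyte genes showed a median difference of -0.39, the mean being lower in 7 of 7, adipocyte genes -0.32, lower in 5 of 6, endothelial genes -0.18, fibroblast genes 0.03 and muscle genes -0.01. Over all 18194 genes the mean was lower in 6852. The intensities of the basal keratinocyte genes summed to 34133 and 34263 on the P59 arrays and to 40962 and 46027 on the P54 arrays. Their part in the difference of the macrophage genes was not tested.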

How the data were processed

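RNA of 4 samples of dorsal skin was read on Affymetrix arrays. The deposited file gives intensity per probe set, on a linear scale, and RMA and Affymetrix Expression Console are named, per the submitters' processing notes, with no version or genome build given in the sources used here. The table holds 45101 probe sets, of which 34958 carry 1 gene symbol in the platform annotation at GEO (possibly outdated), 932 several and 9211 none listed. Values were taken to log2 with no pseudocount, and 1 set per gene was kept, the highest in mean. Genes above the 40th percentile were compared, P59 against P54, with limma 3.58.1 in R 4.3.3 (lmFit, eBayes), checked on simulated data. The fit has 2 residual degrees of freedom, and an exact permutation of 2 arrays against 2 cannot reach 0.05. The number of arrays limits the precision. Every member is named, with Csf1, Il34, Ptprc, Cd207 and Cd3e. Of the other lists the tested genes with the largest difference in each direction are named. The T cell, mast cell and structural lists are exceptions, and their extremes are not given. Further genes named from any of the other lists were chosen after their values were seen. Ly6g and 17 other listed genes had no set of their own. The members, the lists and the tests were chosen with earlier results of these data known. Alternatives changed the filter, the probe sets, the normalization, the prior, the replicate block and the arrays used.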

Additional observations from a re-analysis of the deposited data

How the results depend on the processing

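For the 35 tested macrophage genes, 319 of 341 differences under the alternatives kept their direction and their side of the adjusted threshold in limma. Changing the filter, the prior or the replicate block leaves each difference as it was, so the direction could not turn there. The same holds for genes with 1 probe set under the mean of probe sets. The count is therefore no measure of how stable the directions are. The median difference of 0.48 ran from 0.38 to 0.68 when 1 array at a time was left out. The macrophage genes past the adjusted threshold then ran from 0 to 7, and those at an unadjusted p under 0.05 from 4 to 22. With 1 array in a group, that array is assumed to vary like the others. Over all genes, the 2 past the adjusted threshold became 0 without the filter, with the filter at the 60th percentile, with the mean of probe sets and after repeated quantile normalization, and ran from 29 to 401 with an array left out. Genes at an unadjusted p under 0.05 were 708, and 1122 without the filter, 458 with the stricter filter and 272 to 2030 with an array left out. The filters change how many genes are tested.

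The labels do not say that replicate numbers pair the samples, and the deviations of same-numbered arrays from their group means had a correlation of -0.04 over 10916 genes. With the replicate block 155 genes and 3 macrophage genes (C1qa, Msr1 and Ms4a6d) passed the adjusted threshold.

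Directions turned in 11 macrophage genes, and the cause was not tested. Without P59 replicate 1 the difference was -0.39 for Spi1, -2.83 for C1qa, -0.22 for C1qb, -0.0215 for C1qc and -0.15 for Fcgr1, and 0.38 for Csf1r, 1.10 for Fcgr2b, 0.91 for Cd163 and 0.35 for F13a1. Without P59 replicate 2 it was 0.48 for Spi1, 0.48 for C1qa, 0.78 for C1qb, 0.48 for C1qc and 1.16 for Fcgr1, and -0.24 for Csf1r, -0.0225 for Fcgr2b, -0.51 for Cd163 and -0.12 for F13a1. For Lgals3 it was 0.0499 without P54 replicate 2 and -0.13 when P54 replicate 1 was the array left out. After repeated quantile normalization the Spi1 difference was -0.0075, and with the mean of all probe sets that of Laptm5 was -0.14.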
